A study of Mus musculus with 12 samples.

Results

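Small RNA libraries from the prefrontal cortex of mice held counts on 407 RNA families that the submitters' annotation typed as tRNA, rRNA, snRNA or Rfam other sncRNA, out of 3130 rows that name an RNA. Rfam is a catalogue that groups RNAs of like sequence and fold into families, and every row with one of these types in any library was taken. The families were 2 of type tRNA, 10 of type rRNA, 13 of type snRNA and 382 of type Rfam other sncRNA. All mice were adult male C57BL/6 animals that went through the cocaine conditioned place preference (CPP) procedure, in which an animal learns to associate 1 of the chambers with an injection. SS mice received saline alone, CS mice received cocaine with saline, MS mice received L-methionine with saline and MC mice received L-methionine with cocaine. Per the labels, methionine was injected under the skin more than once a day at 1 g/kg over 10 consecutive days (the sources are not uniform on the dose), and the cortex was dissected 2 h after the CPP test. Each of the 4 groups had 3 libraries, named here by group and label number (SS 12, 13 and 14; CS 8, 9 and 10; MS 3, 4 and 23; MC 16, 17 and 20), and the RNA of each library came from a pool of a pair of animals. The comparisons ask how cocaine (CS vs SS), methionine (MS vs SS), methionine given with cocaine (MC vs CS) and cocaine given with methionine (MC vs MS) relate to these RNAs.

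Most of the counts, though not most of the families, were on working RNAs of every cell. Transfer RNAs carry amino acids to the ribosome, ribosomal RNAs build the ribosome, and the U-rich small nuclear RNAs build the spliceosome that removes introns. RNA polymerase III makes a further set of short RNAs that work with proteins, among them Y RNA, 7SK RNA, vault RNA and the RNAs of RNase P and of the signal recognition particle (SRP). Libraries of RNA between 18 and 30 nt hold no whole copy of most of them, so a count here is a fragment, and its level does not give the level of the RNA it was cut from. Each deposited row is a whole family, without the position of the fragment, the amino acid of a tRNA or the gene copy. In whole tissue, fewer cells of a type and less RNA per cell cannot be told apart.

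The sequences of the Y RNAs are shown because fragments of this family took most of the counts. GENCODE M21 places Rny1 at chr6:47788069-47788180 on the minus strand and Rny3 at chr6:47781624-47781725 on the plus strand of GRCm38, each as a single-exon non-coding gene. Capitals mark runs of at least 8 bases that the other RNA also holds, and they cover 28 bases of each (112 and 102 nt long).
Rny1: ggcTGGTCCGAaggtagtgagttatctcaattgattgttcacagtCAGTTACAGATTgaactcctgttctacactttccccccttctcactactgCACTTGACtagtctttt
Rny3: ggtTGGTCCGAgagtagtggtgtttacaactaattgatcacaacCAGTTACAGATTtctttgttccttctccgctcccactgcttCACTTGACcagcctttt
The runs lie near both ends and in the middle of each RNA, and the files do not say whether a fragment came from Rny1 or Rny3.

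Library totals ranged from 7.77 to 11.1 in units of 1000000 counts, and 3 counts in a library equal 0.271 to 0.386 CPM (counts for each 1000000 of the library total, as in the deposited TPM column). The microRNAs that mark brain (miR-124-3p, miR-9-5p, miR-128-3p and miR-138-5p) summed to 102636 to 269550 CPM, against 27.0 to 87.4 CPM for 3 muscle microRNAs and 9.04 to 2494 CPM for the liver microRNA miR-122-5p, whose highest value was in MS 3. Of the brain microRNAs, miR-124-3p stood at 30002 to 46349 CPM in CS 8, MS 4 and every MC library. It stood at 70274 to 176336 CPM in the other libraries. The part of this split in the MC comparisons was not tested. The libraries were clustered on 125 microRNA precursor families, none of them among the 407. The clustering was cut at 3 sets, a number fixed for the analysis and not found by the clustering. The sets cross the treatment groups. Set A holds SS 12, CS 8 and CS 9. Set B holds SS 13, SS 14, MS 3, MS 4, MS 23 and MC 20. Set C holds CS 10, MC 16 and MC 17. Labels and methods name no batch that matches these sets, and all MS libraries were in set B. In units of 1000000 counts, library totals were 10.01 to 11.08 in set B and 7.77 to 8.71 in sets A and C. The share of counts on repeat rows was also lower in every set B library (3.19% to 4.13%) than in every other library. The part of library totals and repeat share in the comparisons was not tested. MC 16 also stood apart in part: it had the lowest miR-9-5p (15389 CPM), miR-128-3p (15953 CPM), miR-338-3p (31.3 CPM) and miR-451a (382 CPM). Its miR-124-3p (46349 CPM) and miR-138-5p (24945 CPM) lay within the range of the other libraries. It had the highest miR-219a-2-3p (856 CPM, an oligodendrocyte microRNA like miR-338-3p). Its share of counts on genomic regions that name no small RNA was also the highest (31.4%, against 18.7% to 26.1% in the other 11 libraries).

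The 407 families together took 0.463% of the counts in CS 9 (95% Wilson interval 0.458% to 0.467%) and 1.84% in MC 16 (1.83% to 1.85%), the lowest and highest of the 12 libraries. These intervals cover counting error only, take each read as independent and leave out the spread between libraries. The group mean of the SS libraries was 0.714% ± 0.171 and that of the CS libraries 0.637% ± 0.162 (SD, n = 3 each). With methionine the means were 0.613% ± 0.113 for MS and 1.15% ± 0.642 for MC. Both MC 16 and MC 20 (1.04%) lay above the other 10 libraries, while MC 17 (0.574%) lay within their range, so the MC group overlapped the other groups. Without MC 16 the MC mean was 0.807%.

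**Figure D1:**
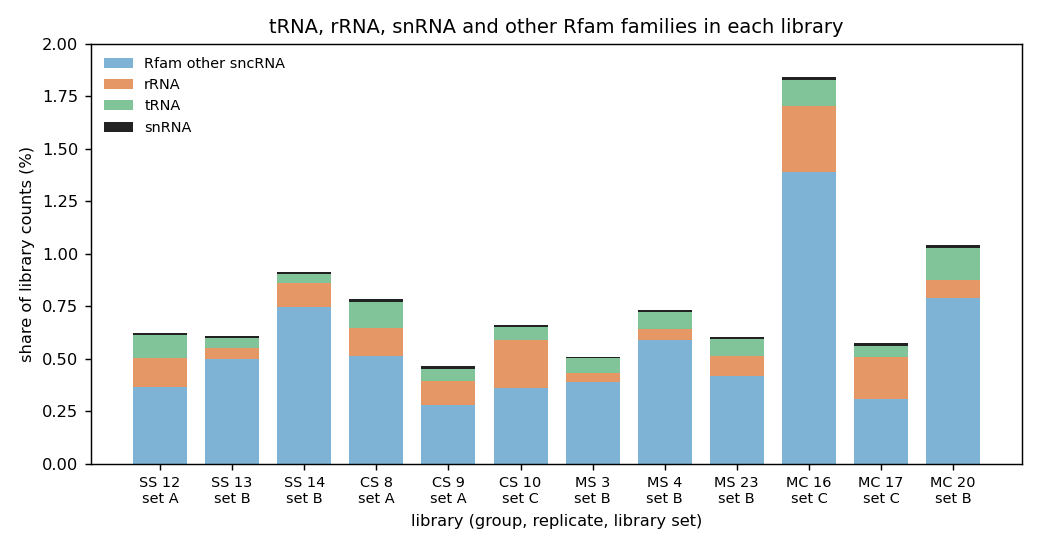
Share of each library's counts (percent, vertical axis) that fell on the families of type Rfam other sncRNA, rRNA, tRNA and snRNA, stacked, for the 12 libraries named by group, replicate and library set. MC 16 reaches 1.84% and MC 20 reaches 1.04%, and the other 10 libraries lie between 0.463% and 0.911%.

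By type, Rfam other sncRNA held 71.8% of the counts on these families, rRNA 16.0%, tRNA 10.7% and snRNA 1.39%. The share of the library on tRNA was 0.0671% ± 0.0385 for SS, 0.0814% ± 0.0371 for CS, 0.0750% ± 0.00610 for MS and 0.110% ± 0.0504 for MC (SD, n = 3 each). For rRNA the shares were 0.101% ± 0.0431, 0.160% ± 0.0638, 0.0633% ± 0.0295 and 0.201% ± 0.114 in the same order. The rRNA shares of the groups overlapped in every pairing except MS and CS, where the highest MS library (0.0970%) was below the lowest CS library (0.112%). All MS libraries are in set B and no CS library is, so treatment and library set cannot be told apart here. Spliceosomal and other snRNAs took 0.00927% ± 0.00101 for SS, 0.0124% ± 0.00234 for CS, 0.00877% ± 0.00252 for MS and 0.0132% ± 0.00107 for MC. Each MC library exceeded each MS library in snRNA share, the lowest MC value being 0.0121% and the highest MS value 0.0115%, and each MC library also exceeded each SS library (highest 0.0104%). No test was run on these sums.

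Counts were concentrated in few families. Y RNA alone held 57.9% of all counts on the 407 families, and the 68 families that reached 5 counts in 3 or more libraries held 99.8%. Of the rest, 210 families had 3 or fewer counts over all 12 libraries and 129 had a single count. By name, 104 families belong to animals or to all eukaryotes, 201 to bacteria or archaea, 41 to viruses and 61 to other organisms or to none that the name makes clear. The eukaryotic names held 86.8% of the counts, the bacterial and archaeal names 12.8%, the viral names 0.160% and the others 0.181%. All 68 families that passed the limit on low counts were tested, 2 of 2 tRNA, 10 of 10 rRNA, 7 of 13 snRNA and 49 of 382 of the other families.

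Fragments of tRNA, pooled over all amino acids, were counted at 1115, 481 and 418 CPM in SS 12, 13 and 14. They stood at 1242, 606 and 592 CPM in CS 8, 9 and 10, at 679, 791 and 778 CPM in MS 3, 4 and 23, and at 1270, 531 and 1496 CPM in MC 16, 17 and 20. The MS libraries lay close together, and each of the other groups held libraries more than 2-fold apart, so that all groups overlapped. With edgeR's quasi-likelihood test the log2 fold change was −0.04 ± 0.47 (SE) for CS vs SS, −0.04 ± 0.47 for MS vs SS, 0.62 ± 0.47 for MC vs CS and 0.62 ± 0.47 for MC vs MS, with adjusted p from 0.668 to 1.0 by the Benjamini-Hochberg method over all small RNAs tested. Selenocysteine tRNA, which reads a UGA codon for the amino acid selenocysteine, had 1 to 13 counts in a library, and its adjusted p lay between 0.818 and 0.996.

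Ribosomal RNA fragments came mostly from the eukaryotic small subunit RNA, 5.8S RNA and the large subunit RNA. The small subunit RNA stood at 683, 210 and 471 CPM in SS 12, 13 and 14, at 642, 604 and 1449 CPM in CS 8, 9 and 10, at 191, 191 and 697 CPM in MS 3, 4 and 23, and at 1883, 1320 and 424 CPM in MC 16, 17 and 20. Its highest levels were in CS 10, MC 16 and MC 17, which form set C. The large subunit RNA stood at 246, 68.1 and 63.9 CPM in the SS libraries, at 199, 182 and 242 CPM in CS, at 48.2, 65.5 and 67.6 CPM with methionine alone and at 313, 212 and 131 CPM in MC, in the same library order. All 6 libraries of set B were below all 6 other libraries for this RNA, and within set B the MC 20 library was the highest. 5.8S RNA, which pairs with the large subunit RNA, did not follow that split: it reached 656 CPM in MC 16 and 551 CPM in SS 14 and lay between 136 and 363 CPM in the other 10 libraries.

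5S RNA, the small ribosomal RNA that is made apart from the others by RNA polymerase III, had 53 counts in SS 12, 51 in CS 10, 48 in MC 16 and 55 in MC 17, and 3 to 15 counts in the other 8 libraries. Set C was therefore uniformly high, and set B held 3 to 10 counts. For each 100 counts of 5.8S RNA there were 0.0655 to 2.85 counts of 5S RNA, a 43.5-fold range over the 12 libraries. In MC vs MS the log2 fold change of 5S RNA was 3.43 ± 1.31, with an edgeR adjusted p of 0.510, and it ran from 0.12 to 4.03 over the alternatives. Within set B the single MC library (10 counts, 0.916 CPM) was above the MS libraries (0.365 to 0.599 CPM).

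The other 6 rRNA families are named for bacteria, archaea or microsporidia. Ribosomal RNA is conserved between kingdoms, and how reads that fit several families were divided is not given in the sources used here, so these rows are uncertain as to organism. The bacterial large subunit row held 28.9 to 43.6 counts for each 100 counts on the eukaryotic large subunit row, a 1.51-fold range. Over the same libraries the eukaryotic row itself ranged from 48.2 to 313 CPM. The bacterial small subunit row held 4.53 to 13.1 counts for each 100 on the eukaryotic small subunit row. These rows thus had their lowest and highest levels in the same library sets as the eukaryotic ones: both bacterial rows were lower in all of set B than in every other library.

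Among the RNAs that work in small ribonucleoproteins, Y RNA, which binds the Ro60 protein, was the most counted family in every library. It stood at 2403, 4181 and 6826 CPM in SS 12, 13 and 14, at 3740, 1933 and 2331 CPM in CS 8, 9 and 10, at 3329, 5080 and 3388 CPM in MS 3, 4 and 23, and at 11353, 2036 and 6449 CPM in MC 16, 17 and 20. The MC group held both the highest and the second lowest level of all, and every pair of groups overlapped. The log2 fold change was −1.04 ± 0.60 for CS vs SS, −0.40 ± 0.59 for MS vs SS, 1.57 ± 0.61 for MC vs CS and 0.93 ± 0.60 for MC vs MS. None passed (edgeR adjusted p 0.996, 0.936, 0.637 and 0.588), and without MC 16 the MC vs CS value was 0.60 and the MC vs MS value 0.03. For each 100 counts of tRNA there were 216 to 1635 counts of Y RNA, with the lowest value in SS 12 and the highest in SS 14, 2 libraries of the same group. A separate row named Y RNA-like, outside the lists by function, was also tested. Its log2 fold change was 0.28 ± 0.49 for CS vs SS and −0.60 ± 0.50 for MC vs CS, opposite in sign to Y RNA. In MS vs SS (−0.65 ± 0.50) and MC vs MS (0.33 ± 0.50) it had the same sign (edgeR adjusted p 0.752 to 0.996 in all).

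7SK RNA, which holds the elongation factor P-TEFb inactive, stood at 104.8, 98.004 and 63.6 CPM in SS and at 56.8, 45.2 and 58.3 CPM in CS, so that all CS libraries were below all SS libraries. It stood at 31.5, 75.8 and 49.3 CPM in MS 3, 4 and 23 and at 260.0, 53.8 and 103.8 CPM in MC 16, 17 and 20. The fitted cocaine difference was downward without methionine (a log2 fold change of −1.0 with SE 0.60) and upward with it (1.62 ± 0.61), where MC 17 lay below MS 4. Without MC 16 the latter value was 0.54. The interaction of cocaine and methionine was 2.62 ± 0.86, the smallest p of any of the 68 families in that test, and it did not pass (edgeR adjusted p 0.929, 48 of 1389 small RNAs at an unadjusted p under 0.05). Without MC 16 the interaction was 1.47, and with library set as a covariate it was 2.38 ± 0.90 (adjusted p 1.0).

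Nuclear RNase P RNA, the catalytic RNA that trims the 5′ end of tRNA precursors, had 106 counts in MC 16 and 4 to 26 counts in the other 11 libraries. MC 17 and MC 20 (2.88 and 2.38 CPM) also lay above all MS libraries (0.385 to 1.70 CPM) and all CS libraries (1.65 to 2.20 CPM). The log2 fold change was 2.00 ± 0.79 for MC vs CS and 2.85 ± 0.82 for MC vs MS (edgeR adjusted p 0.637 and 0.484), and it was 0.40 and 1.31 without MC 16. SRP RNA, which targets secreted proteins to the endoplasmic reticulum, ranged from 2.92 CPM in MS 3 to 26.1 CPM in MC 16 and was higher in every MC than in every MS library (log2 fold change 1.97 ± 0.75, adjusted p 0.510, and 0.67 to 2.48 over the alternatives). Vault RNA varied least among the listed families of this kind, from 7.35 to 14.8 CPM, a 2.01-fold range. RNase MRP RNA had 0 to 12 counts in a library.

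Taken as a list of 6 (Y RNA, 7SK, vault, SRP, RNase P and RNase MRP), none was called in any comparison. In MC vs CS and in MC vs MS all 6 log2 fold changes were above 0, with medians of 1.17 and 1.80, where the medians of all 1389 small RNAs were 0.08 and 0.02. MC 16 had the highest level of 5 of the 6, and without it 4 of 6 were above 0 in MC vs CS (median 0.43) and 6 of 6 in MC vs MS (median 0.61). In MS vs SS all 6 were below 0 (median −0.77, all small RNAs −0.05), and in CS vs SS 5 of 6 were below 0 (median −0.39, all small RNAs 0.06). The comparisons share libraries, since the MC libraries enter the first 2 and the SS libraries the last 2. The CS libraries enter both MC vs CS and CS vs SS, and the MS libraries both MC vs MS and MS vs SS. With library set as a covariate the medians of this list were −0.79 in CS vs SS, −0.48 in MS vs SS, 1.18 in MC vs CS and 0.97 in MC vs MS. For the 6 families of translation (tRNA, selenocysteine tRNA, 5S, 5.8S, small and large subunit RNA) none was called either. Their medians were 0.35 in CS vs SS, −0.84 in MS vs SS, 0.62 in MC vs CS and 1.62 in MC vs MS, the last 2 being 0.0315 and 0.88 without MC 16. With library set as a covariate the medians were −0.33, −0.28, 0.54 and 0.51 in the same order. Each comparison had a single set with libraries of both groups. That set held 2 CS and 1 SS libraries for CS vs SS and 3 MS and 2 SS for MS vs SS. It held 2 MC and 1 CS libraries for MC vs CS and 1 MC and 3 MS for MC vs MS.

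**Figure D2:**
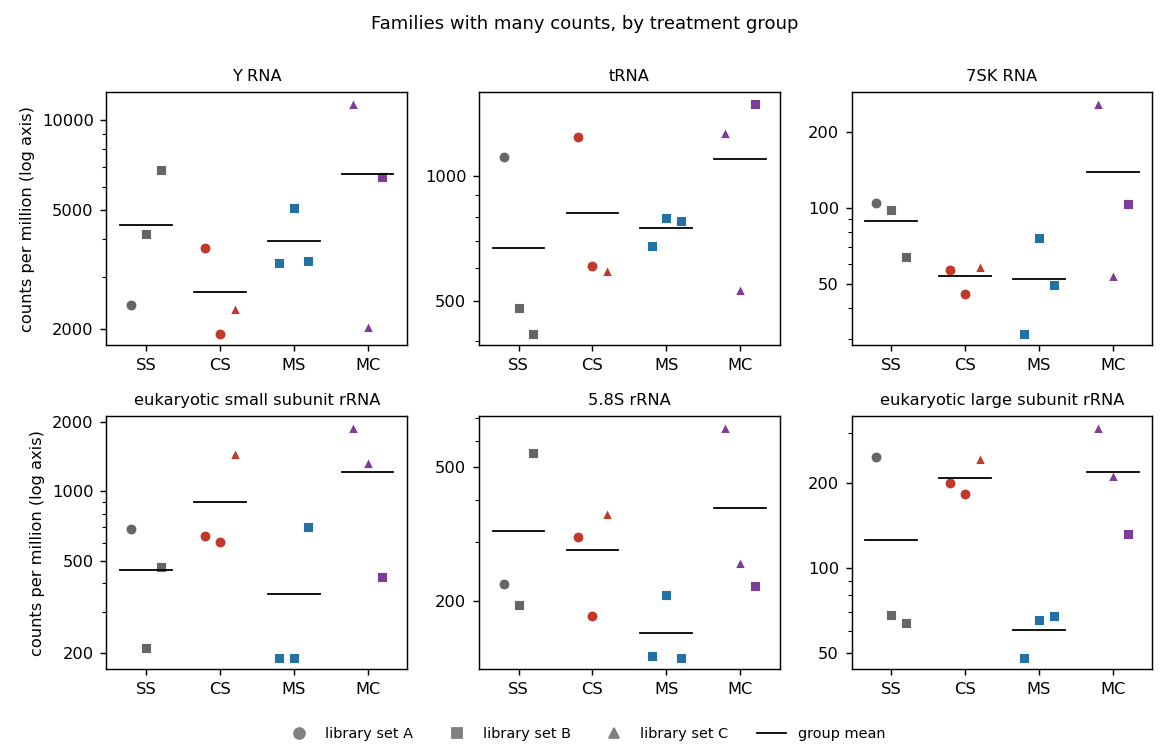
Level of 6 families in CPM (log axis) by treatment group. Each point is 1 library, its shape gives the library set and the bar gives the mean of the 3 libraries. Y RNA and 7SK RNA are highest in MC 16 (11353 and 260.0 CPM), and the large subunit RNA is lower in all set B libraries (48.2 to 131 CPM) than in the others (182 to 313 CPM).

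U6 RNA, the catalytic core of the spliceosome, was the most counted snRNA, at 48.0 CPM in MS 3 to 113 CPM in MC 20. It stood at 72.4, 65.1 and 72.6 CPM in SS 12, 13 and 14, at 99.1, 75.3 and 106.8 CPM in CS 8, 9 and 10, at 48.0, 84.6 and 62.8 CPM in MS 3, 4 and 23 and at 104.8, 92.4 and 113 CPM in MC 16, 17 and 20. Each CS library was above each SS library and each MC library above each MS library. The log2 fold changes after TMM scaling were 0.17 ± 0.28 for CS vs SS and 0.73 ± 0.28 for MC vs MS (edgeR adjusted p 0.996 and 0.510). U2, which pairs with the branch point, was higher in every MC library (11.1 to 19.9 CPM) than in every MS library (5.65 to 10.2 CPM), with a log2 fold change of 1.03 ± 0.47 (adjusted p 0.515, and 0.20 to 1.38 over the alternatives).

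U1, which pairs with the 5′ splice site, stood at 10.1 CPM in SS 12, 15.5 CPM in CS 8 and 9.19 CPM in CS 9, the libraries of set A, and at 1.81 to 8.37 CPM in the other 9. U4 ranged from 6 counts in MS 23 to 114 counts in CS 8, with 94 counts in MS 4 and 85 in MC 20 and at most 25 in the rest, so the high libraries belonged to 3 groups and 2 sets. U5 had 31 counts in all and was not tested. None of the 4 tested families of the major spliceosome was called, and their median log2 fold change was 0.38 in CS vs SS, −0.49 in MS vs SS, −0.06 in MC vs CS and 0.72 in MC vs MS. With library set as a covariate these medians were −0.02, −0.01, 0.30 and 0.38 in the same order.

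In the minor spliceosome, which removes a rare class of introns, U4atac followed the library sets. It had 17 and 25 counts in SS 13 and SS 14, 39, 59 and 27 counts in MS 3, 4 and 23 and 19 counts in MC 20, which are the libraries of set B. It had 3 counts in CS 8 and was at 0 in SS 12, CS 9, CS 10, MC 16 and MC 17, where a count of 0 allows up to 0.344 to 0.386 CPM. The pooled counts were 42 in SS and 3 in CS, a ratio of 12.1 after scaling to library totals. Its 95% exact counting interval of 3.87 to 61.0 covers counting error only and leaves out the spread between libraries. With that spread in the fit, the edgeR log2 fold change was −3.72 ± 1.76 (adjusted p 0.996). With library set as a covariate the direction turned, to 2.23 ± 1.47 (adjusted p 1.0). No CS library was in set B. In set A, the only set with both groups, U4atac had 3 counts in CS 8 and 0 in CS 9 and SS 12. U6atac had 1 to 9 counts in a library, U12 had 30 counts in all and U11 had 1.

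U7 RNA helps to form the 3′ end of histone messages. It stood at 2.09 to 2.53 CPM in SS and 1.72 to 1.96 CPM in CS, groups that did not overlap. Its log2 fold change was −0.54 ± 0.42 (edgeR adjusted p 0.996). The histone 3′ stem-loop, the messenger element that U7 acts beside, had 6, 8 and 7 counts in the SS libraries, 5, 1 and 4 in the CS, 6, 11 and 5 in the MS and 6, 10 and 15 in the MC libraries. It was lower in every CS library than in every SS library and higher in every MC library than in every CS library (log2 fold change −1.13 ± 0.61 and 1.56 ± 0.60, adjusted p 0.996 and 0.637). Both comparisons use the same CS libraries, and with 1 to 5 counts in each of them 1 read is a large share of a level. The iron response element had 26 counts in all, and the selenocysteine insertion elements had 1 and 5. No row for telomerase RNA of animals or for BC1 RNA was found.

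**Figure D3:**
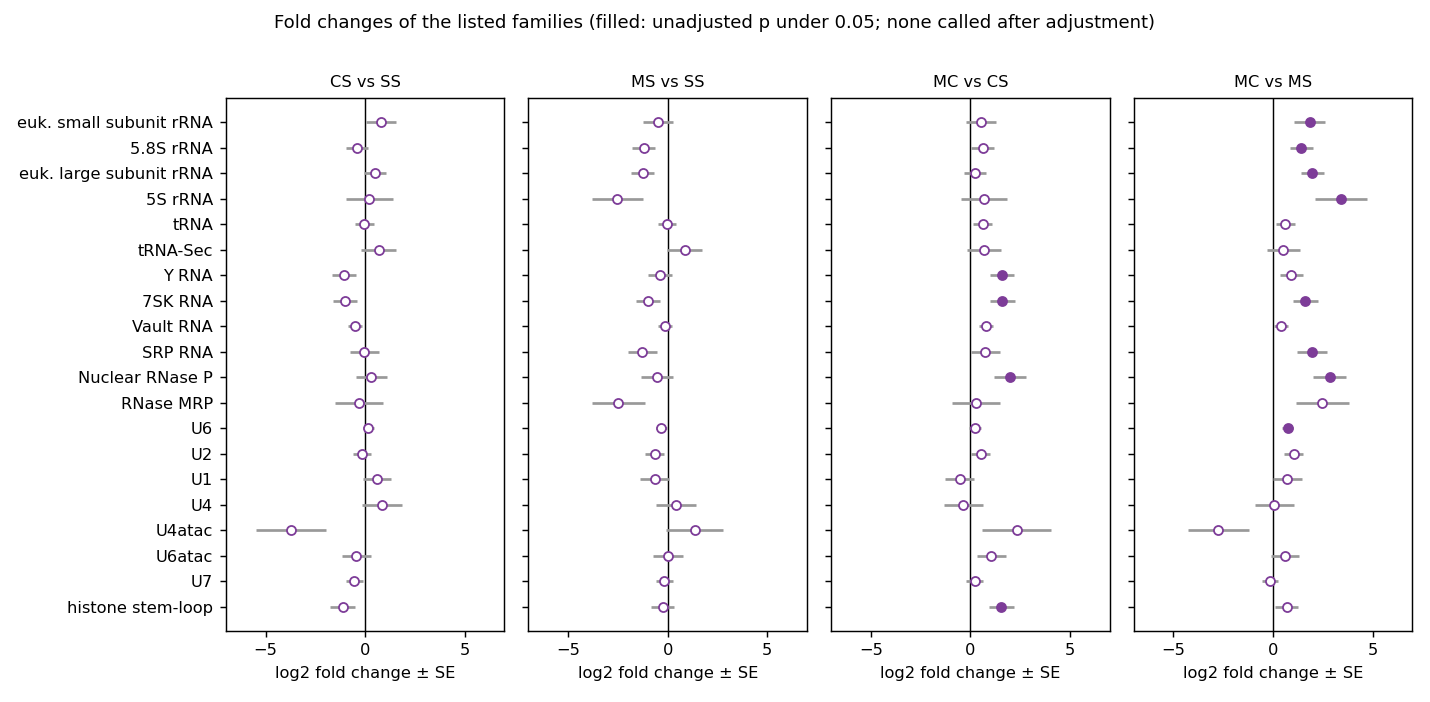
Log2 fold change (horizontal axis) with its standard error from edgeR for 20 listed families in 4 comparisons of 3 libraries each. Filled points have an unadjusted p under 0.05, and no family passed an adjusted p of 0.05. In MC vs MS 4 rRNA families, 7SK, SRP RNA, RNase P and U6 are filled, all to the right of 0.

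Transfer-messenger RNA (tmRNA), the bacterial RNA that frees stalled ribosomes and that carries a tRNA-like end, held 10.2% of the counts on these families. It stood at 942, 422 and 456 CPM in the SS libraries, 1096, 652 and 1013 in the CS, 352, 595 and 500.3 in the MS and 1978, 813 and 1069 in the MC libraries. Every MC library was above every MS library (log2 fold change 1.56 ± 0.48, adjusted p 0.484, and 0.90 without MC 16). The separate row for tmRNA of Betaproteobacteria held 3.51 to 7.42 counts for each 100 on the general row. It had the smallest p of all 68 families in MC vs MS: 73.1, 45.4 and 65.3 CPM in MC 16, 17 and 20 against 15.0, 25.9 and 25.6 CPM in MS 3, 4 and 23, a log2 fold change of 1.55 ± 0.41 (adjusted p 0.484). The files do not say whether these reads came from bacteria or from mouse RNA of like sequence.

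The tRNA-like small RNA cleaved from the end of Malat1, counted together with its relative from the MEN beta transcript, was chosen after its values were seen. It had 1831 counts in SS 13, 1236 in MS 3, 1299 in MS 23 and 1068 in MC 20, and 316 to 709 counts in the other 8 libraries. These 4 libraries belong to set B, but SS 14 (334 counts) and MS 4 (549 counts) do not share the level. Its edgeR adjusted p was between 0.781 and 1.0 in the 4 comparisons.

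For cocaine without methionine (CS vs SS), 3 families had an unadjusted p under 0.05, all lower in CS: the renin stability regulatory element, PhotoRC-I RNA and Pseudomonas sRNA P35. PhotoRC-I, named for a motif of marine bacteria, and the other families listed at this unadjusted limit were named after their values were seen. The renin element, a stretch of renin messenger RNA that sets its stability, had 4, 8 and 11 counts in SS and 2 counts in each CS library, a log2 fold change of −1.89 ± 0.56. With 2 counts in a library, 1 read is a large share of its level. P35 had few counts in set A, the only set holding both groups. Its log2 fold change of −2.43 became 0.0024 with library set as a covariate. None was called by edgeR (adjusted p 0.996), 0 of 1389 small RNAs were called (0%), and 52 (3.74%) had an unadjusted p under 0.05, against 4.41% of the 68 families. Of 68 families, 12 did not overlap between CS and SS, 6 in each direction, against 10.9% of all small RNAs. Without SS 12 the number of families at an unadjusted p under 0.05 was 15, and it was 6 without MC 16 and 5 without MC 17. For counts of families with a library left out, here and below, the matching share of all small RNAs is not given. Such counts do not single out these families.

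For methionine without cocaine (MS vs SS), 3 families had an unadjusted p under 0.05, all lower in MS, namely Pseudomonas sRNA P10, the 23S rRNA pseudoknot and tmRNA of Alphaproteobacteria. P10 had the smallest p, with 39, 3 and 0 counts in SS 12, 13 and 14 and 0, 1 and 0 counts in MS, a log2 fold change of −5.40 ± 1.95 (adjusted p 0.672). Its SS counts came mostly from SS 12. The pooled SS level in CPM was 44.9 times that of MS. The counting interval of 7.63 to 1815 leaves out the spread between libraries. Of all 1389 small RNAs 0 were called (0%) and 83 (5.98%) had an unadjusted p under 0.05, against 4.41% of the families. Of 68 families, 6 did not overlap, 3 in each direction, against 17.6% of all. The number of families at an unadjusted p under 0.05 was 0 without SS 12, 9 without SS 13, 11 without SS 14, 7 without MC 16 and 9 without MC 20, and 1 without CS 8, CS 9, MS 3 or MS 4.

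When methionine was added to cocaine (MC vs CS), 7 families had an unadjusted p under 0.05. Higher in MC were the renin element, PhotoRC-I RNA, 7SK, the histone stem-loop, Y RNA and RNase P, and lower was P10. The renin element had 7, 6 and 15 counts in MC against 2 in each CS library, a log2 fold change of 2.11 ± 0.56 (adjusted p 0.637), and within set C the 2 MC libraries (mean 0.827 CPM) were above CS 10 (0.244 CPM). For P10 the counts were 2, 1 and 2 in MC against 42, 48 and 1 in CS, and the high libraries CS 8 and CS 9 belong to set A, which holds no MC library. Its log2 fold change of −3.97 turned to 0.38 once library set was a covariate. None was called, 0 of 1389 small RNAs were called (0%), and 92 (6.62%) had an unadjusted p under 0.05, against 10.3% of the families. Of 68 families, 8 did not overlap, 5 higher and 3 lower in MC, against 6.19% of all. Without CS 9 the number at an unadjusted p under 0.05 was 2, and without MC 16 it was 3.

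Cocaine given with methionine (MC vs MS) had the most families with a small unadjusted p: 22 of 68, of which 19 were higher and 3 lower in MC. All 10 rRNA families were among the 19, with RNase P, 7SK, SRP RNA, U6, 3 tmRNA rows, the plant SRP row and the RNase E element. Lower in MC were P35, a coronavirus stem-loop row and a Caulobacter sRNA row. None was called by edgeR (smallest adjusted p 0.484), and 0 of 1389 small RNAs were called (0%). An unadjusted p under 0.05 was seen for 9.36% of all small RNAs and for 32.4% of the families, and 22 families did not overlap between the groups (17 higher, 5 lower) against 12.1% of all. The rRNA rows can share reads, as said above, and are not independent of each other.

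DESeq2, run on the same counts, called 32 of 1389 small RNAs in MC vs MS. Among them were 6 of 68 families, all higher in MC. They were RNase P (log2 fold change 2.96 ± 0.87), tmRNA (1.63 ± 0.50), tmRNA of Betaproteobacteria (1.62 ± 0.41), the bacterial small subunit row (2.25 ± 0.66), the 23S pseudoknot row (2.22 ± 0.67) and the eukaryotic large subunit row (2.05 ± 0.59), with DESeq2 adjusted p from 0.00657 to 0.0432. In CS vs SS, MS vs SS, MC vs CS and the interaction it called no family, and 3, 25, 2 and 1 small RNAs in all. Its unadjusted p was under 0.05 for 4, 7, 8 and 8 families in these comparisons. The matching numbers for all small RNAs are not given. DESeq2 was run on groups alone. Its calls were not tested with library set as a covariate or with a library left out.

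Library set and treatment cannot be fully separated in MC vs MS, since all MS libraries and 1 of 3 MC libraries were in set B. With library set as a covariate in edgeR, 1 of 68 families (tmRNA of Betaproteobacteria, log2 fold change 1.25 ± 0.47) had an unadjusted p under 0.05 in place of 22, against 1.87% of all small RNAs. Within set B, MC 20 was above all 3 MS libraries for 34 of 68 families and for 31.5% of all small RNAs. The median log2 fold change of the 68 families was 0.71 without the covariate and 0.29 with it, where that of all small RNAs was 0.02 and 0.00. Without MC 16 the number of families at an unadjusted p under 0.05 was 12, and without MS 3, MS 4 or MS 23 it was 12, 13 and 14. MC 16 held the highest level of 19 of the 68 families (27.9%) and of 22.9% of all small RNAs. Some of its microRNA values and its genomic region value given above also differ from the rest. Their part in the result was not tested.

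For the interaction, 6 families had an unadjusted p under 0.05, all above 0 (7SK, PhotoRC-I, the renin element, Y RNA, RNase P and 5.8S RNA), which is 8.82% of 68 against 3.46% of all small RNAs. No family and 0 of 1389 small RNAs were called (0%), and the number was 3 without CS 9, without MS 23 or without MC 16. In the test for any difference among the 4 groups 12 families had an unadjusted p under 0.05 (17.6%, against 7.85% of all), led by Pseudomonas sRNA P35 (adjusted p 0.586), and 0 small RNAs were called (0%) by edgeR. DESeq2 called 3 of 68 families there (RNase P, P35 and tmRNA of Betaproteobacteria) and 40 of 1389 small RNAs. The edgeR number was 5 without MS 3, 6 without MS 4 and 19 without MC 20, and with library set as a covariate it was 0.

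Several families separated by library set more clearly than by treatment. P35 had 10 to 38 counts in the 6 libraries of set B and 1 to 3 counts in each of the other 6. P10 had 39, 42 and 48 counts in SS 12, CS 8 and CS 9 and at most 3 in the other 9, so set A was set apart. The plant SRP row had 28, 23 and 23 counts in CS 10, MC 16 and MC 17 and at most 4 in the rest. These rows are named for bacteria and plants, were chosen for this pattern after their values were seen, and the files do not say which transcript the reads fit.

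The HIV primer binding site row, the site to which a host lysine tRNA anneals to start reverse transcription, was also chosen after its values were seen. It had 47 to 240 counts in set B, 20 and 32 counts in CS 9 and CS 8, and 0 or 1 count in SS 12, CS 10, MC 16 and MC 17. SS 12 thus differed from the other libraries of its set.

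By count, 12 of 68 families were lower in all of set B than in every other library (17.6%), against 1.66% of 1264 tested small RNAs other than the precursors that defined the sets. Another 5 were higher in all of set B (7.35%, against 1.03%), 7 were higher in all of set A (10.3%, against 5.93%) and 5 were higher in all of set C (7.35%, against 3.56%). Another 2 were lower in all of set A (2.94%, against 0.633%), and 0 were lower in all of set C, against 1.503% of all. The 12 that were low in set B comprised the large subunit and 5S RNAs of eukaryotes, 5 rRNA rows of other organisms, 2 tmRNA rows and 3 further rows. The members of the sets were found from these data and the number of sets was fixed, so these counts describe the libraries and carry no test.

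**Figure D4:**
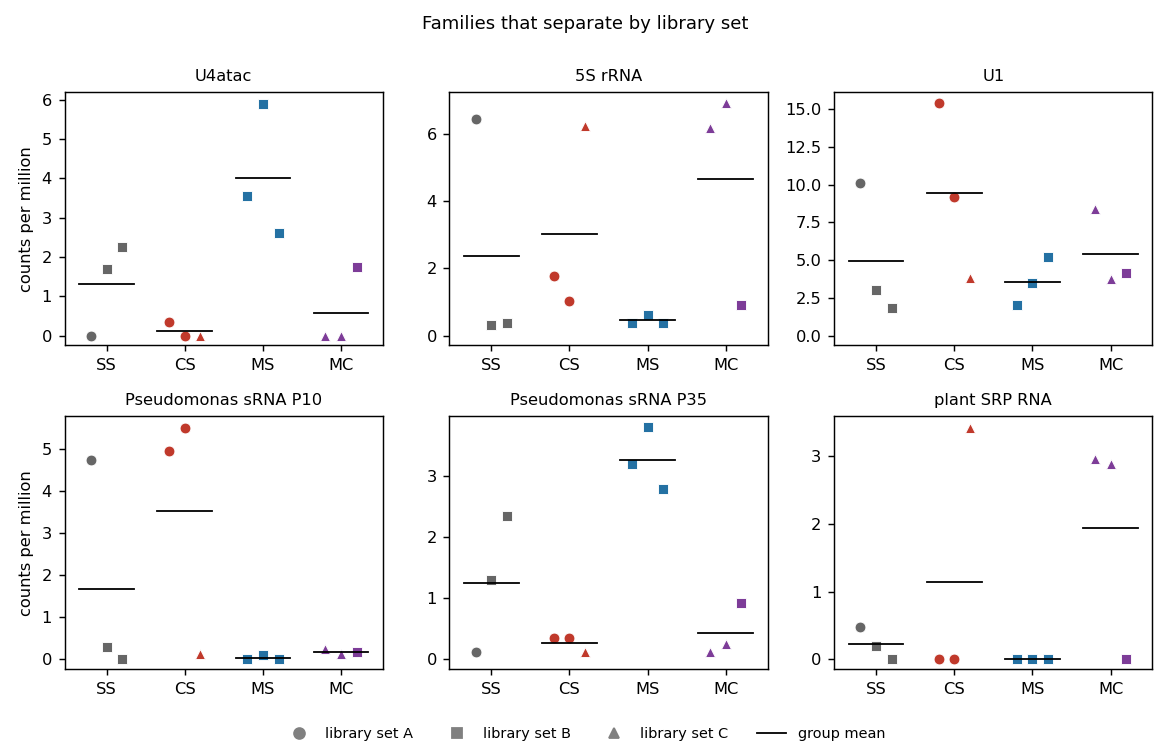
Level in CPM (linear axis) of 6 families by treatment group, with 1 point for each library, its shape giving the library set and the bar the mean of 3 libraries. U4atac and P35 are high in set B (squares), P10 and U1 in set A (circles) and the plant SRP row in set C (triangles), while 5S RNA is high in set C and in SS 12.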

How the data were processed

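Small RNA of 18 to 30 nt was sequenced with 50 nt reads in 12 libraries, 3 for each group. The authors removed low-quality, adapter and short reads (under 16 nt), mapped the rest with AASRA and, per the submitters' processing notes, used Bowtie and the mm10 build. The deposited count is the number of reads on each RNA without normalization, and the deposited TPM is that count over the library total, scaled to 1000000 (matched within 0.005). Library totals were 7.77 to 11.1 in units of 1000000 counts.

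Rows for exons, introns, repeats and intergenic regions name no RNA. They held 18.7% to 31.4% of the counts and stayed out of library sizes and tests. RNAs with at least 5 counts in 3 libraries (1389) entered a single quasi-likelihood fit (edgeR 4.0.16 under R 4.3.3, TMM factors, a coefficient for each group, leaving 8 degrees of freedom), and p-values were adjusted over all of them by Benjamini-Hochberg, with calls at 0.05. SE is the fold change over the root of F. The study's DEGseq test pools replicates and was not used. Nothing in the labels says that the libraries are more than separate pools of animals, so p-values measure the spread between these pools. No 2 libraries agreed within sampling noise (66 pairs, 382 miRNAs).

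Named families are the 3 most counted of each type, the one with the smallest p in each comparison and fixed lists by function. Members and lists were chosen with earlier results of these data known, and the sorting of families by organism was made after seeing them. Alternatives were DESeq2 1.42.0, other scalings and filters, the 6 libraries of a comparison alone, a fold limit, library set as a covariate, and each library left out.

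On simulated CS vs SS counts, 0% of 188 RNAs changed by a log2 of 1, 30.8% of 185 changed by 2 and 78.2% of 188 changed by 4 were recovered (1299, 1303 and 1305 tested). Calls on unchanged RNAs numbered 0, 2 and 7. The simulated libraries shared a single mean profile without library sets, unlike the real ones. The changed RNAs were drawn from all RNAs, not from the families alone. Tables and plots were made in Python 3.11.15 (matplotlib 3.10.9, scipy 1.17.1, pandas 2.3.3 and numpy 2.4.6), and sequences come from GENCODE M21 (GRCm38).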

Additional observations from a re-analysis of the deposited data

How the results depend on the processing

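No family was called by edgeR under another scaling, filter, fold limit, library set covariate or 6-library fit, or with any library left out, so the count of calls was 0 to 0 over the libraries left out. DESeq2, run on groups alone, called 6 families in MC vs MS and 3 for any difference. A denominator of counts on rows naming an RNA leaves out the 18.7% to 31.4% on exon, intron, repeat and intergenic rows. Every share must therefore rise, and whether a mean moves by more than 1 SD depends also on the SD of its group. Taking shares over counts on rows naming an RNA moved 9 means by more than 1 SD: tRNA in MS to 0.0949%, the share of library counts on snRNA by group, SS, to 0.0119%, and snRNA to 0.0164% in CS and 0.0182% in MC, Rfam other sncRNA to 0.507% in CS and 0.592% in MS, and all families to 0.912% in SS, 0.842% in CS and 0.778% in MS.

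Of 125 log2 fold changes (25 named families in 5 tests), none of them called, 46 changed sign under at least 1 alternative, and 5 of these were at least 1 in size: U4atac in CS vs SS and MC vs CS, P10 in MC vs CS and P35 in CS vs SS with library set as a covariate (U4atac in MC vs CS also without MC 20), and 5S RNA in MS vs SS without SS 12 (0.21). Values follow for the 8 that belong to the most counted family of each type, RNase P or the large subunit RNA. For tRNA CS vs SS the value was 0.31 without TMM, 0.0243 with the library total, 0.0325 with at least 10 counts, 0.0354 in the 6-library fit, and −0.30 (without SS 14) to 0.52 (without SS 12) with a library left out. For tRNA MS vs SS it was 0.13 without TMM, 0.0474 without a filter, 0.34 with library set as a covariate, and −0.30 to 0.51 with a library left out. With library set as a covariate CS vs SS became −0.43 for RNase P, −0.36 for the small subunit RNA and −0.29 for the large subunit RNA. With a library left out U6 in CS vs SS ran from −0.0490 (without CS 10) to 0.31, the small subunit RNA in MC vs CS from −0.17 (without MC 16) to 1.24 and the large subunit RNA in MC vs CS from −0.37 (without MC 16) to 0.58. The cause was not tested. No paired analysis was possible because the groups share no replicate numbers.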
